A study of Mus musculus with 24 samples.

Results

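The genes described here encode the nuclear subunits of mitochondrial complex I, measured in livers of WT and Ogg1-/- mice on chow or a high-fat diet (HFD). They are the probe sets of the array whose annotation gives a single gene symbol made of Nduf, a letter a, b, c, s or v, and a number, so that assembly factors (Ndufaf) were left out. The rule found 39 probe sets, and 1 was kept per gene, the one with the highest mean over all 24 arrays. This gave 35 genes of the 19938 genes with a single-symbol probe set. Of these, 6 encode core subunits and 27 accessory subunits. The other 2, Ndufa4 and Ndufa4l2, keep the family name although the Ndufa4 protein is now counted with complex IV. A further 3 probe sets, shared by related copies of Ndufs5 or Ndufb4, were left out.

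OGG1 is the DNA glycosylase that starts the repair of oxidized guanine, and Ogg1-/- mice lack a functional gene in every tissue. The study used male mice, labelled as strain C57BL6 and, according to the methods, backcrossed to C57BL/6J. All were individually housed, with chow or HFD freely available for 10 weeks. The labels give a starting age of 10 weeks, and the methods a somewhat older one. There were 6 mice in each of 4 groups: WT on chow, Ogg1-/- on chow, WT on HFD and Ogg1-/- on HFD. Total RNA from each liver was measured on 1 Mouse Gene ST array. Values are log2 intensities, so that a difference of 1 is a doubling, and each probe set has its own probes, so levels are compared between livers and not between genes.

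Complex I takes electrons from NADH and passes them through a flavin and a chain of iron-sulfur clusters to ubiquinone, while its membrane arm pumps protons. The core subunits carry this chemistry and are conserved from bacteria, with part of them made from nuclear genes and the rest from mitochondrial DNA. The accessory subunits surround the core, are mostly small, and are needed for its assembly and stability. In liver, complex I reoxidizes the NADH made by the oxidation of fatty acids and by the citric acid cycle.

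The sequences just before the start of some of these genes are given first, because these genes carried the clearest differences or hold letters recognized by known regulators of mitochondrial genes. Each run is the 250 bases upstream of the start of the transcript, 5′ to 3′, from RefSeq on the build GRCm38.p6. Capitals mark matches on either strand to GCGCATGCG (the letters searched for NRF1), AAGGTCA (ERR), CCGGAAG (GABP and other ETS factors) or ATGGCGG (YY1). Ndufa9 had the smallest p in the genotype comparison on HFD, Ndufb6 the next, and Ndufs5 the smallest p between the diets in Ogg1-/- livers. Ndufb2, Ndufa1 and Ndufa11 show the ERR, YY1 and NRF1 letters, and Ndufa10 is a member that ran the opposite way.
Ndufa9, chr6:126849145-126849394, reverse strand: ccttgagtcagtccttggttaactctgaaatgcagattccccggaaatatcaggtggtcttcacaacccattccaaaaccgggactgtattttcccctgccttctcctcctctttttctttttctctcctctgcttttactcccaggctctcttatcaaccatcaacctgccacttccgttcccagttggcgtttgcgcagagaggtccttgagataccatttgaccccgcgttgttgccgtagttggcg
Ndufb6, chr4:40279422-40279671, reverse strand: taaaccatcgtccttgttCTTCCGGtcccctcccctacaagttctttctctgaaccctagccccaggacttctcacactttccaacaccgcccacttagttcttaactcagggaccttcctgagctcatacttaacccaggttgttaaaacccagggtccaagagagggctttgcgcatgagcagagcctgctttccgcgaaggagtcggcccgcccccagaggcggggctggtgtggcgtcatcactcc
Ndufs5, chr4:123718187-123718436, reverse strand: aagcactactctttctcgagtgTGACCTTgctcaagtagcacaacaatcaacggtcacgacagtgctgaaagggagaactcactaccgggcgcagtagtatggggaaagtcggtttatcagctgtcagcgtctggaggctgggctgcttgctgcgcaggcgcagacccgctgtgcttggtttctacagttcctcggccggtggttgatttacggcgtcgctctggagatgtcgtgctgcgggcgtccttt
Ndufb2, chr6:39592315-39592564, forward strand: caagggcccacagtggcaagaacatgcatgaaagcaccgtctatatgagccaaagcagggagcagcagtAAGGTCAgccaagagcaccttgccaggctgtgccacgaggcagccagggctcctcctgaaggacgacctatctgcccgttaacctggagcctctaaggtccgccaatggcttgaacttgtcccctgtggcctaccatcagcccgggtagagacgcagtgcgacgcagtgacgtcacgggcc
Ndufa1, chrX:37191239-37191488, reverse strand: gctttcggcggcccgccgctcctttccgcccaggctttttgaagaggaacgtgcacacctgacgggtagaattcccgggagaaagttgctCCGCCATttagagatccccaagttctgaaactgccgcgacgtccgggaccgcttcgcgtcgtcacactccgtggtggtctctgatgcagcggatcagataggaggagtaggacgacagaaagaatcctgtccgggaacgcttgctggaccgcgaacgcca
Ndufa11, chr17:56717512-56717761, forward strand: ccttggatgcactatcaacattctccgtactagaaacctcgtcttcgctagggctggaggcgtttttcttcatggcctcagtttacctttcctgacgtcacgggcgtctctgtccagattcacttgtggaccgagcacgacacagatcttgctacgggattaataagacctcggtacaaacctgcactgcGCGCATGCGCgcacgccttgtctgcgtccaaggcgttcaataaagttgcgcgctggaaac
Ndufa10, chr1:92473759-92474008, reverse strand: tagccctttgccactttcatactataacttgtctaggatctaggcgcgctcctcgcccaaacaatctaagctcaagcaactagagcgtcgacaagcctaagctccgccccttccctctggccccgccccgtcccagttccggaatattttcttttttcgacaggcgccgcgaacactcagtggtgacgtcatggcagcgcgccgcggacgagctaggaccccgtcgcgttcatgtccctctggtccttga

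A promoter entry was found for 31 of the 35 members. Over these 250 upstream bases, the ERR letters were in 2 members (6.45%, against 4.7% of all 27025 genes with an entry) and the GABP letters in 3 (9.68%, against 7.83%). The NRF1 letters were in 2 members (6.45%, against 1.64%). In Ndufa11, they match on both strands at overlapping positions. The YY1 letters were in 3 members (9.68%, against 2.58%) upstream, and in 8 (25.8%, against 4.69%) once the first 50 bases of the transcript were added. This longer string also fits a start codon followed by an alanine codon, so part of these matches can lie in coding sequence. That includes the upstream match of Ndufa5, which lies within the span of the gene, after the start of another transcript. The shorter GC box GGGCGG, not marked in the runs, was in 12 members upstream (38.7%, against 35.4%). These are matches of letters and not sites of binding.

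The labels were checked with the targeted gene. Ogg1 lay between 6.341 and 6.569 (log2) in WT livers on HFD and between 5.702 and 6.031 in Ogg1-/- livers, and on chow between 6.26 and 6.549 against 5.847 and 5.997. The genotypes did not overlap on either diet. Hepatocyte genes were bright in all livers (mean of 8 markers from 13.0 to 13.5). An Ogg1-/- liver fed chow, replicate 1, lay far from the other 5 of its group. On the first principal component of the spread among chow-fed livers it scored 80.9, and the next highest Ogg1-/- liver on chow 7.74. Results that rest on it are given with and without it.

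On HFD, most complex I genes were higher in Ogg1-/- than in WT livers, by small amounts. Of the 35 members, 24 were higher, 1 was lower (Ndufs1) and 10 did not pass, with limma and an adjusted p under 0.05. Over the whole array of 35556 probe sets, 10.3% passed as higher and 9.55% as lower. Among the 11442 brighter genes, those with a mean level at or above the median of all probe sets, 19.4% were higher and 19.1% lower. The median difference of the members was 0.33 (log2), beside 0.02 for all probe sets and 0.05 for the brighter genes, and 33 of the 35 differences were above 0. Fewer cells of a type and less RNA per cell cannot be told apart in whole liver.

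In most members the groups were also separate. In 21 members every Ogg1-/- liver lay above every WT liver on HFD, and in 1 (Ndufa10) every Ogg1-/- liver lay below, against 6.08% and 6.04% of all probe sets. Among the 11442 brighter genes, 1417 lay wholly above and 1534 wholly below. The 24 members that passed as higher rose by 0.22 to 0.54 on the log2 scale, or 1.17-fold to 1.45-fold.

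**Figure D1:**
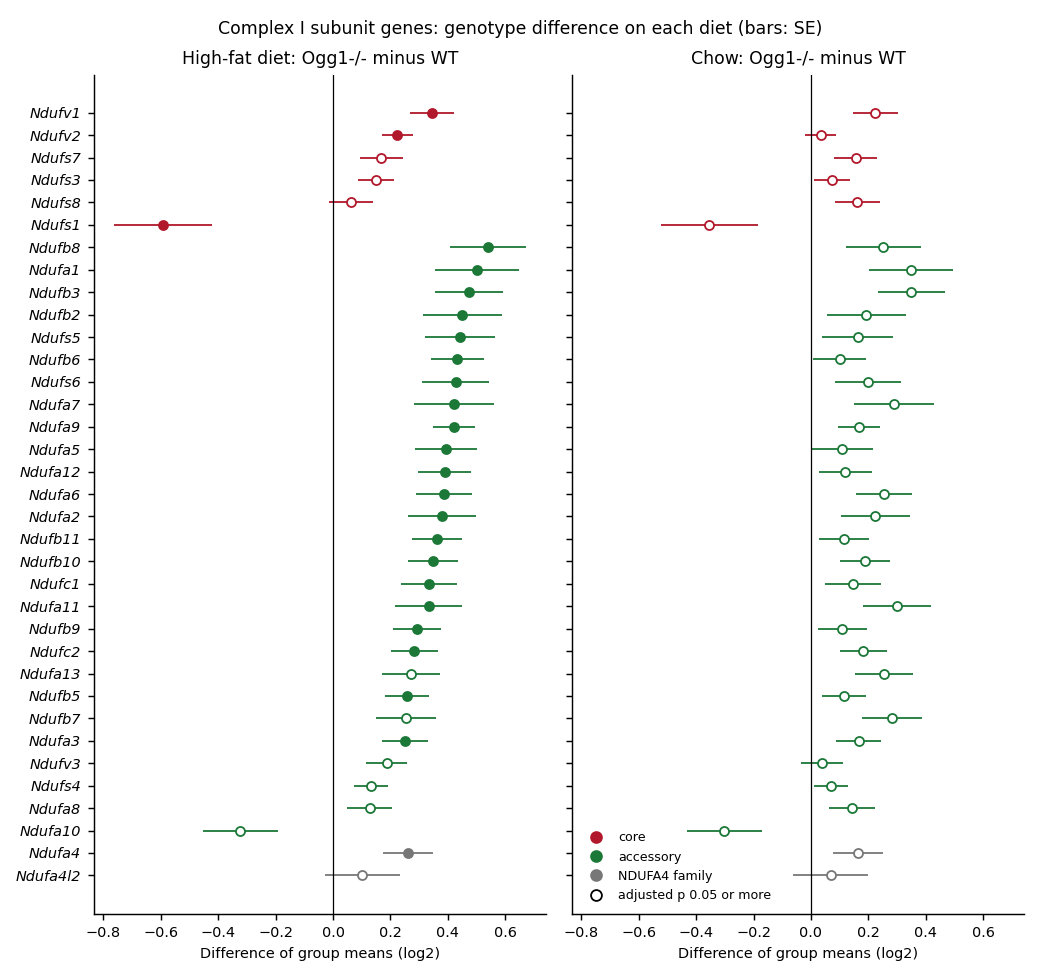
Difference between Ogg1-/- and WT group means (log2, horizontal axis) for each of the 35 members on HFD (left) and on chow (right), with the standard error as a bar, 6 livers per group. Filled points have an adjusted p under 0.05 from limma. On HFD 24 filled points lie above 0 and Ndufs1 lies at -0.59, while no point is filled on chow.

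The core subunits were uneven. Ndufv1, which binds NADH and the flavin where electrons enter, had log2 values from 10.97 to 11.21 (median 11.07) in WT livers on HFD and from 11.34 to 11.54 (median 11.44) in Ogg1-/- livers. The groups did not overlap, and the difference was 0.34 (SE 0.08, adjusted p = 0.00484 from limma). Ndufv2, the neighbouring iron-sulfur subunit, ran from 11.86 to 12.08 (median 12.03) in WT livers and from 12.16 to 12.28 (median 12.21) in Ogg1-/- livers. It rose by 0.22 (SE 0.05, adjusted p = 0.00672 from limma), again without overlap.

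Ndufs1 ran the opposite way. It encodes the largest subunit of the matrix arm, which holds several iron-sulfur clusters and passes electrons on from Ndufv1. Its log2 values ran from 9.173 to 9.597 (median 9.461) in WT livers on HFD and from 8.438 to 9.263 (median 8.793) in Ogg1-/- livers. It fell by 0.59 (SE 0.17, adjusted p = 0.0173 from limma), the largest difference in size among the 35 members. A single Ogg1-/- liver, replicate 3 at 9.263, lay within the WT range. Without replicate 1 of the Ogg1-/- livers on HFD, the lowest of the group, the difference was -0.51 and did not pass (adjusted p = 0.0523 from limma).

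The remaining 3 core subunits did not pass the test. They lie in the part of the matrix arm nearest to ubiquinone. Ndufs7, which holds the terminal iron-sulfur cluster, ran from 12.69 to 12.87 (median 12.78) in WT and from 12.79 to 13.02 (median 12.98) in Ogg1-/- livers, a difference of 0.17 (SE 0.08, adjusted p = 0.122 from limma). Ndufs3, at the base of the matrix arm, ran from 11.2 to 11.35 (median 11.27) and from 11.29 to 11.48 (median 11.44), a difference of 0.15 (SE 0.06, adjusted p = 0.0966 from limma). In both genes the ranges overlapped. For Ndufs8, another iron-sulfur subunit, the WT livers spanned 11.02 to 11.19 (median 11.13) and the Ogg1-/- livers 11.05 to 11.33 (median 11.16), so that nearly the whole WT range lay within the other. The difference for Ndufs8 was 0.06 (SE 0.08, adjusted p = 0.645 from limma), and -0.02 after quantile normalization.

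The accessory subunits were mostly higher. Of 27, 21 were higher, none was lower by the test, and the median difference was 0.36 (log2), beside 0.16 for the 6 core members and 0.17 for the core without Ndufs1. The accessory differences ran from -0.32 to 0.54, and those of the 5 core members other than Ndufs1 from 0.06 to 0.34. Accessory genes of the matrix arm were higher in 7 of 9, those of the distal membrane arm in 8 of 9, and those of the proximal membrane arm in 6 of 9. Their median differences were 0.39, 0.36 and 0.28. The difference between the classes was not tested, since genes are not replicates.

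In the matrix arm, Ndufa9 sits where the arm meets the membrane and resembles short-chain dehydrogenases. Its log2 values ran from 10.3 to 10.57 (median 10.37) in WT livers on HFD and from 10.76 to 10.9 (median 10.8) in Ogg1-/- livers. Every Ogg1-/- liver lay clearly above the highest WT liver, and the difference was 0.42 (SE 0.07, adjusted p = 0.00149 from limma). Ndufa12, a small subunit related to an assembly factor, ran from 9.297 to 9.601 (median 9.395) and from 9.648 to 10.03 (median 9.798), without overlap, and rose by 0.39 (SE 0.09, adjusted p = 0.00621 from limma). Ndufs6, which binds zinc, rose by 0.43, Ndufa7 by 0.42, Ndufa5 by 0.39, Ndufa6 by 0.39 and Ndufa2 by 0.38, while Ndufv3 (0.19) and Ndufs4 (0.13), whose loss in mice causes a fatal brain disease, did not pass.

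In the distal membrane arm, Ndufb6 ran from 11.87 to 12.32 (median 12.15) in WT livers on HFD and from 12.43 to 12.67 (median 12.56) in Ogg1-/- livers. The groups did not overlap, and the difference was 0.43 (SE 0.09, adjusted p = 0.00371 from limma). Ndufb11, an X-linked subunit of the same arm, ran from 11.73 to 12.08 (median 11.93) and from 12.16 to 12.42 (median 12.29), without overlap, and rose by 0.36 (SE 0.09, adjusted p = 0.00654 from limma). Its other probe set, not used, gave 0.40. Ndufb8, a subunit often probed on blots as a sign of assembled complex I, had the largest rise of all members, 0.54 or 1.45-fold. Ndufb3 rose by 0.47, Ndufb2 by 0.45, Ndufb10 by 0.35, Ndufb9 by 0.29 and Ndufb5 by 0.26, and Ndufb7 (0.25) did not pass.

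In the proximal membrane arm, X-linked Ndufa1 rose by 0.50, Ndufs5 by 0.44, Ndufa11 and Ndufc1 by 0.33 each, Ndufc2 by 0.28 and Ndufa3 by 0.25. The other probe set of Ndufa11 gave 0.22 and did not pass (adjusted p = 0.143 from limma), while both probe sets of Ndufc1 passed. Ndufa13, also known as the cell death regulator GRIM-19, had a difference of 0.27 and Ndufa8 of 0.13, and neither passed. Ndufa10, which resembles nucleoside kinases, ran the opposite way from its neighbours, from 11.14 to 11.48 (median 11.28) in WT and from 10.74 to 11.1 (median 10.99) in Ogg1-/- livers. These groups did not overlap, yet its difference of -0.32 (SE 0.13, adjusted p = 0.0853 from limma) did not pass in the fit of all 4 groups. On chow, Ndufa10 was at 10.17 in Ogg1-/- replicate 1 and between 11.11 and 11.29 in the other 5. With that liver left out of the fit, the HFD difference passed (adjusted p = 0.00134 from limma).

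Outside the complex proper, Ndufa4 rose by 0.26, and Ndufa4l2, its hypoxia-induced relative, had a difference of 0.10 that did not pass. Ndufa4l2 was also the dimmest member, with a mean of 5.838 (log2).

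**Figure D2:**
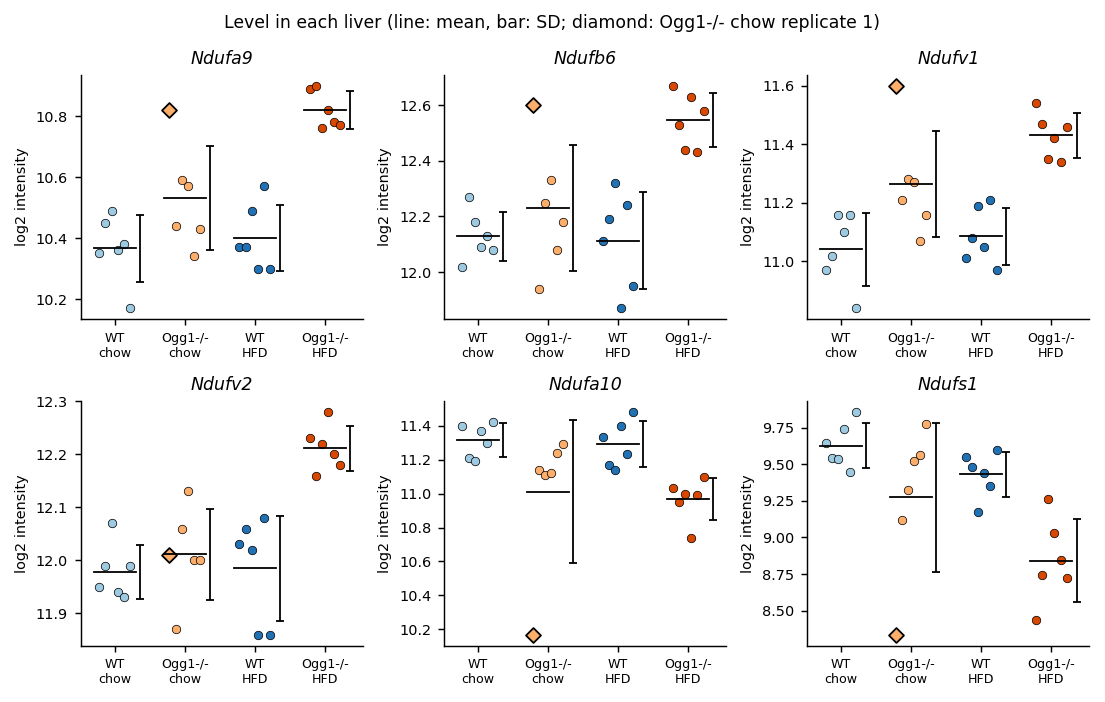
Log2 intensity (vertical axis) of 6 members in each of the 24 livers by group. Points are livers, horizontal lines are means, bars are SDs over 6 livers and the diamond is replicate 1 of the Ogg1-/- livers on chow. On HFD, Ndufa9, Ndufb6, Ndufv1 and Ndufv2 are higher and Ndufa10 lower in every Ogg1-/- liver, Ndufs1 is below every WT liver in all but 1 Ogg1-/- liver, and the diamond lies at the end of its group in each plot except that of Ndufv2.

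The class means of each liver depended on Ndufs1. The mean of the 27 accessory members ran from 9.912 to 10.09 (median 9.952) in WT livers on HFD and from 10.23 to 10.41 (median 10.3) in Ogg1-/- livers, without overlap. The mean of the 6 core members ran from 11.24 to 11.33 and from 11.3 to 11.36, with overlap. Without Ndufs1, whose fall offset the other 5, the core mean ran from 11.57 to 11.72 in WT livers and from 11.78 to 11.88 in Ogg1-/- livers, and the groups did not overlap. The accessory mean minus the core mean ran from -1.357 to -1.225 in WT livers on HFD and from -1.126 to -0.898 in Ogg1-/- livers, again without overlap. With Ndufs1 left out of the core, it ran from -1.714 to -1.627 and from -1.591 to -1.472, so that the groups were still apart but close. These are averages over the rows that the rule chose, given as a description.

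Gene length in the genome moved with these differences across the whole array. Among the brighter genes that are not members, the median difference on HFD was 0.19 for the 1658 genes under 5 kb, 0.17 for 5 to 10 kb, 0.10 for 10 to 20 kb, -0.01 for 20 to 50 kb and -0.19 for the 2841 genes of 50 kb or more. In the shortest class 29.3% were higher and 2.71% lower, and in the longest 7.29% and 36.6%. Most members are short genes. Leaving out the dim Ndufa4l2, 9 lie under 5 kb and 14 between 5 and 10 kb, with 5, 5 and 1 in the longer classes. Their medians in the same order were 0.35, 0.37, 0.19, 0.23 and 0.13, above the median of the other genes in each class. Ndufs1 (33.2 kb) and Ndufa10 (34.3 kb), the 2 members below 0, are among the 3 longest, and Ndufs4, the longest, had a difference of 0.13. The part of gene length in the members' differences was not tested.

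**Figure D3:**
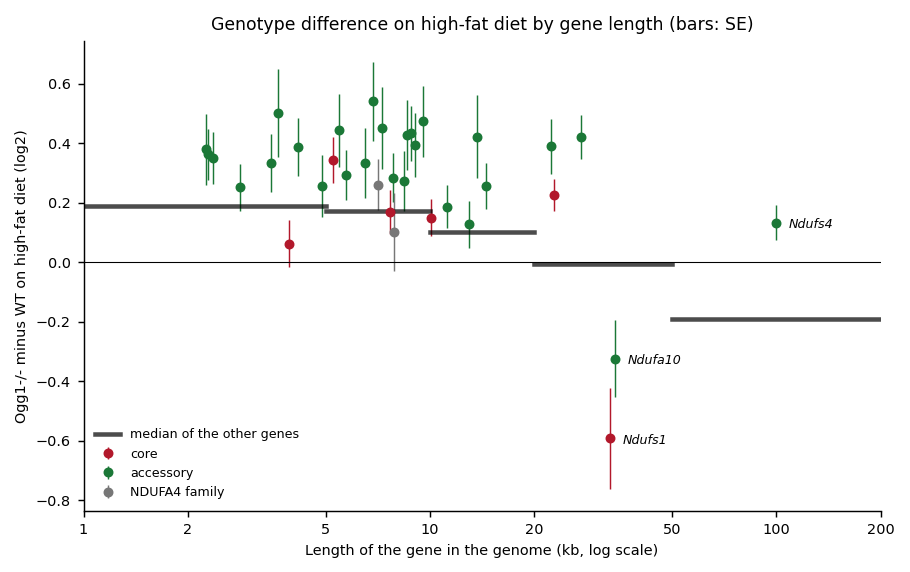
Difference between Ogg1-/- and WT livers on HFD (log2, vertical axis) against the length of the gene in the genome (kb, log scale) for the 35 members, with standard errors as bars. Thick lines are medians of the other brighter genes in 5 length classes, the outer ones open-ended. Most members lie above the line of their class, and Ndufs1 and Ndufa10 lie farthest below.

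The same contrast of short and long genes varied from liver to liver. The mean of the genes under 5 kb minus the mean of those of 50 kb or more ran from 0.04459 to 0.2875 in WT livers on HFD and from 0.4254 to 0.7218 in Ogg1-/- livers. On chow it ran from -0.2374 to 0.1311 in WT livers, and in Ogg1-/- livers it was 0.8561 in replicate 1 and at most 0.2623 in the others. Replicate 1 on chow also had the highest accessory mean of all 24 livers, 10.51, and the lowest Ndufs1 level, 8.338. Livers high in this contrast were thus also high in the accessory mean.

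**Figure D4:**
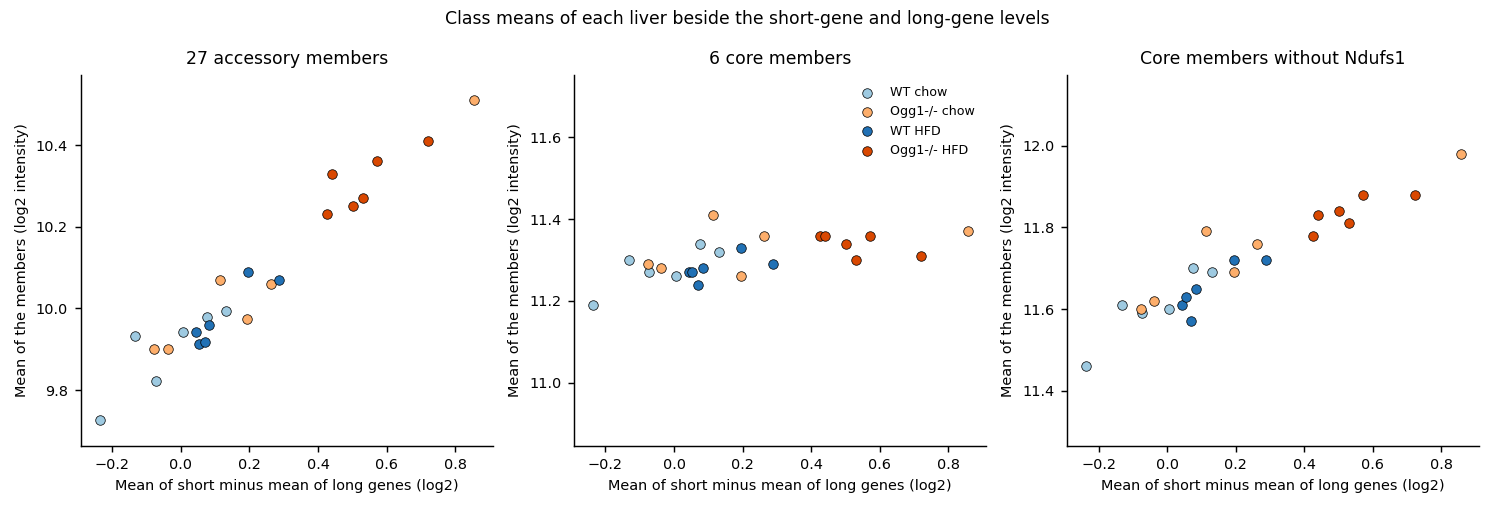
Mean log2 intensity of the 27 accessory members (left), the 6 core members (middle) and the core members without Ndufs1 (right) in each liver against the mean of short genes (under 5 kb) minus the mean of long genes (50 kb or more), none of them members. Points are the 24 livers by group and the vertical axes span the same range. The accessory mean climbs from 9.727 to 10.51 along the axis and the core mean without Ndufs1 from 11.46 to 11.98, while the mean of all 6 core members, in which Ndufs1 runs the opposite way, stays between 11.19 and 11.41.

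The component score named above moved with the genotype on HFD too, from -20.7 to 10.4 in WT and from 18.5 to 54.8 in Ogg1-/- livers. With this score as a covariate, 2 members were higher, Ndufa9 (0.28, adjusted p = 0.0205 from limma) and Ndufv2 (0.23, adjusted p = 0.0371 from limma), and 0 were lower. In that fit 1.33% of the array passed as higher and 1.38% as lower. In it, 11 members had an unadjusted p under 0.05, where 18% of all probe sets did. The median of the members was 0.11, beside -0.02 for all probe sets, and 30 of 35 differences were above 0. The component rests largely on replicate 1 of the Ogg1-/- livers on chow, and the covariate also takes out any effect of the genotype that runs along it.

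Among markers of liver cell types, mainly the endothelial ones differed in the same comparison. Of all probe sets 10.3% were higher and 9.55% lower, and of the brighter genes 19.4% and 19.1%. Of 8 endothelial markers, 7 were lower in Ogg1-/- livers on HFD, with a mean from 8.44 to 8.92 in WT and from 8.10 to 8.35 in Ogg1-/- livers. Stellate cell markers were lower in 2 of 8 (means 8.08 to 8.68 and 8.08 to 8.45), Kupffer cell markers lower in 2 of 8 and higher in 1 (8.42 to 8.68 and 8.39 to 8.49). Hepatocyte markers were lower in 1 of 8 (13.2 to 13.4 and 13.1 to 13.3) and lymphocyte markers higher in 1 of 6 (6.01 to 6.17 and 6.07 to 6.33). None of 5 cholangiocyte (5.57 to 6.05 and 5.85 to 6.04) or 3 adipocyte markers (4.88 to 5.29 and 4.87 to 5.05) passed. An array gives no true 0, and the part of these cells in the members' differences was not tested.

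The rest of the respiratory chain was described from lists of its genes. Between the genotypes on HFD, 10.3% of all probe sets were higher and 9.55% lower, and of the brighter genes 19.4% and 19.1%. Of 17 measured assembly factors of complex I, 6 were higher and 1 (Acad9, -0.48) was lower in Ogg1-/- livers on HFD, with a median of 0.16. Dmac2, which helps assemble the distal membrane arm, rose by 0.52 (SE 0.09, adjusted p = 0.00176 from limma) and Ecsit, a scaffold of the assembly complex, by 0.43 (SE 0.09, adjusted p = 0.00424 from limma). Ndufab1, the mitochondrial acyl carrier protein that is also a subunit of complex I but falls outside the name rule, rose by 0.33 (SE 0.09, adjusted p = 0.015 from limma). Of the complex I subunits made in the mitochondria, 1 of 7 was measured, Nd3, a membrane subunit whose difference was 0.26 (SE 0.08, adjusted p = 0.0301 from limma).

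Genes of the other complexes were also mostly called higher, where they passed. Among the brighter genes 19.4% were higher and 19.1% lower, and among those under 5 kb that are not members 29.3% and 2.71%. Complex IV genes were higher in 7 of 9, among them Cox5b (0.34, adjusted p = 0.00736 from limma) and Cox6a1 (0.46, adjusted p = 0.00942 from limma). Complex III genes were higher in 5 of 9, among them Cyc1, which encodes cytochrome c1 (0.43, adjusted p = 0.0051 from limma), and Uqcrc1 (0.24, adjusted p = 0.00525 from limma), and 1 was lower, Uqcrc2 (-0.50). ATP synthase genes were higher in 5 of 15, among them Atp5l (0.57, adjusted p = 0.00482 from limma) and Atp5h (0.26, adjusted p = 0.00668 from limma), and 1 was lower, Atp5c1 (-0.23). Complex II genes were higher in 1 of 4, Sdhc (0.38, adjusted p = 0.00533 from limma). The median differences of these lists were 0.25, 0.31, 0.21 and 0.12.

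Among 9 regulators of mitochondrial genes, 2 were lower and 1 was higher. Of all probe sets 9.55% were lower and 10.3% higher, and of the brighter genes 19.1% and 19.4%, so these counts are near those of the brighter genes. Ppargc1a, the coactivator of mitochondrial biogenesis, fell by 0.79 (SE 0.18, adjusted p = 0.0056 from limma), with a median of 7.38 and a highest value of 7.75 in WT livers on HFD and a range from 6.35 to 6.75 (median 6.62) in Ogg1-/- livers. Gabpa, the DNA-binding subunit of GABP, fell by 0.76 (SE 0.18, adjusted p = 0.00578 from limma), with ranges of 7.77 to 8.39 (median 8.19) and 6.88 to 7.68 (median 7.44). Neither overlapped between the genotypes. Both differences were below 0 while those of most members were above 0, and a link between them was not tested. Tfam, which packs and transcribes mitochondrial DNA, rose by 0.39.

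On chow, no member passed the test between the genotypes, where 0.478% of all probe sets were called, although 16 members had an unadjusted p under 0.05 (18% of all probe sets did) and 14 of these were higher (9.77% of all probe sets). The median difference was 0.16 (all probe sets 0.02), and 33 of 35 were above 0. The smallest p was that of Ndufb3, a membrane-arm subunit, which ran from 7.487 to 8.035 (median 7.778) in WT and from 7.906 to 8.505 (median 8.022) in Ogg1-/- livers, with overlap, a difference of 0.35 (SE 0.12, adjusted p = 0.157 from limma). Ndufs1 and Ndufa10 again had differences below 0, -0.35 and -0.30. With Ogg1-/- replicate 1 left out, the median was 0.08, 4 members had an unadjusted p under 0.05 (11.2% of all probe sets), and the differences of Ndufs1 and Ndufa10 were -0.17 and -0.13.

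In WT livers, none of the members passed between HFD and chow, where 0.925% of all probe sets were called, and the median difference was 0.06. An unadjusted p under 0.05 was found for 1 member, where 13.4% of all probe sets had one. This was Ndufa8, a subunit of the intermembrane space side. It ran from 10.63 to 10.8 (median 10.72) on chow and from 10.7 to 11.06 (median 10.95) on HFD, with overlap, a difference of 0.22 (SE 0.08, adjusted p = 0.213 from limma). The fit shares its estimate of the spread among all 4 groups. With Ogg1-/- replicate 1 on chow left out, 8 members had an unadjusted p under 0.05 from limma. The median difference was again 0.06. The share of all probe sets in that fit is not given here, so the low count rests on that liver.

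In Ogg1-/- livers, 7 members were higher on HFD than on chow and none was lower, beside 4.58% (higher) and 4.94% (lower) of the whole array. The median difference was 0.20. This comparison shares its HFD livers with the genotype comparison on HFD and its chow livers with that on chow, so their values are not independent. Ndufs5, a small subunit of the intermembrane space side, ran from 8.477 to 9.505 (median 8.714) on chow and from 9.296 to 9.418 (median 9.312) on HFD, and rose by 0.52 (SE 0.12, adjusted p = 0.0111 from limma). Ndufa9 ran from 10.34 to 10.82 (median 10.51) and from 10.76 to 10.9 (median 10.8), and rose by 0.29 (SE 0.07, adjusted p = 0.017 from limma). In both, the chow liver that overlapped was replicate 1. Ndufv2 ran from 11.87 to 12.13 (median 12.01) and from 12.16 to 12.28 (median 12.21), without overlap, and rose by 0.20 (SE 0.05, adjusted p = 0.0247 from limma). Ndufs6, Ndufb6, Ndufc1 and Ndufa5 rose by 0.41, 0.32, 0.32 and 0.35.

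This count rested on single livers. Without replicate 1 on chow, 25 members were higher and 2 lower (Ndufs1, -0.62, and Ndufa10, -0.21), beside 12.8% and 12.6% of the whole array. Without replicate 5 on chow 1 was higher, without replicate 2 or 6 on chow or replicate 1 on HFD 2 were, without replicate 2 on HFD 3, and without replicate 4 or 6 on HFD 4.

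The genotype difference on HFD was not shown to differ from that on chow. In the interaction no member passed, where 0.00281% of all probe sets did, and 4 members had an unadjusted p under 0.05, where 6.88% of all probe sets had one. The smallest p was that of Ndufb6, whose genotype difference was larger on HFD than on chow by 0.33 (SE 0.13, adjusted p = 0.633 from limma). Its values on chow ran from 12.02 to 12.27 (median 12.11) in WT and from 11.94 to 12.6 (median 12.22) in Ogg1-/- livers. With the distant chow liver (Ogg1-/- replicate 1) left out, 2 members passed, Ndufb8 (0.45, adjusted p = 0.0461 from limma) and Ndufb2 (0.43, adjusted p = 0.0481 from limma), where 1.52% of all probe sets did. In that fit 19 members had an unadjusted p under 0.05 from limma, a share not given here for all probe sets. The members' median was 0.19 (all probe sets 0.02), and 0.13 with that liver kept.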

How the data were processed

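RNA from 24 mouse livers, 6 per group, was measured on 1 Affymetrix array each. The authors deposited log2 intensities per probe set, from 1.81 to 14.8, made by robust multiarray averaging (RMA) according to the submitters' processing notes, while the methods name GC-RMA. No source used here names the build behind the array's annotation. Groups and replicate numbers came from the sample titles. A single limma model (version 3.58.1, under R 4.3.3) estimated the 4 group means for each of 35556 probe sets, with no filter, and members were called at an adjusted p under 0.05 (Benjamini-Hochberg over all probe sets). No fold threshold was used, since the members' differences are small. Symbols came from the platform table, which gives 1 symbol to 21789 probe sets and several to 1621, and leaves 12146 unnamed here. Entrez identifiers matched 21698 of the former, and all 35 members, to RefSeq on GRCm38.p6, which gave gene lengths. Protein lengths were not used here. Tested for the HFD comparison on simulated data of the same size, the fit recovered 72 of 100 probe sets changed 1.5-fold and 96 of 100 changed 2-fold, with 8 false calls. The simulated noise was drawn separately for each probe set, while real probe sets vary together from liver to liver. The 8 false calls therefore do not give the error rate in these data. The number of arrays limits the precision, and most members changed less than 1.5-fold.

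Members with full values are, on HFD, the 5 with the smallest adjusted p in each direction among those that passed and all measured core subunits, and in the other comparisons up to 3 per direction, or the 1 with the smallest p. From other lists up to 2 genes are named by the smallest adjusted p. Ndufa10, Ndufb8, Nd3, Acad9, Uqcrc2, Atp5c1 and Tfam were named after their values were seen. The members and lists were chosen with earlier results of these data known. Array correlations ran from 0.952 to 0.993, with 0 identical arrays. Over 36 pairs of same-numbered arrays, residual correlations ran from -0.273 to 0.431 (median -0.034), so the numbers were not treated as pairs. Alternatives tried were median centring, a replicate block, quantile normalization, the brighter probe sets alone, array weights, a trended robust prior, the 12 arrays of each comparison alone, the methods' t-test, the mean over the probe sets of a gene, the axis score as a covariate, a fold of at least 1.2, and leaving out each array in turn. Their use on members named outside the HFD comparison was added after seeing the data. The axis score is the projection of each array on the first principal component of the residuals of the chow groups.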

Additional observations from a re-analysis of the deposited data

Results flagged for a closer look

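In 68 groups of 6 values looked at, 7 held a liver far from the others by Dixon's criterion. Chance flags about 1 in 20 independent groups, but these groups share the same livers, so the count cannot be set against that rate. Of the 7 flagged livers, 5 were replicate 1 of the Ogg1-/- livers on chow. It was the highest of its group for Ndufa12 (9.992, next 9.583), Ndufb11 (12.5, next 12.02), the accessory mean (10.51, next 10.07), the accessory mean minus the core mean (-0.8611, next -1.291) and the short-gene mean minus the long-gene mean (0.8561, next 0.2623). Ndufs7 was lowest in replicate 3 of the Ogg1-/- livers on HFD (12.79, next 12.97), and Ndufa8 in replicate 2 of the WT livers on HFD (10.7, next 10.94). What sets these livers apart was not tested.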

How the results depend on the processing

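Of 941 values under 35 alternatives, 887 kept their direction and their side of the threshold, or moved by a limited amount. Counts that moved as far as from 24 to 17 higher members are among the 887. So are counts that were 0 under every alternative. On HFD, 24 members were higher: 2 with the axis covariate, 20 to 28 under the other 10 alternatives on all or part of the arrays, 24 with the replicate block, and 17 to 28 with an array left out. The 1 lower member became 2 with quantile normalization, without dim probe sets, with array weights, with the 12 arrays alone and with the methods' t-test, 0 with the axis covariate, and 0 to 2 with an array left out (0 without replicate 1 of the Ogg1-/- livers on HFD, 2 without replicate 1 of the Ogg1-/- chow group). The accessory median (0.362) was 0.125 and the core median (0.159) 0.0192 with the axis covariate, and the core median was 0.105 after quantile normalization. With an array left out they ran from 0.331 to 0.39 and from 0.146 to 0.178. Ndufs8 turned to -0.0219 after quantile normalization and to -0.102 with the axis covariate. Between the diets in Ogg1-/- livers, the 7 higher members were 5 with the replicate block, 24 with array weights (1 lower), 0 with the 12 arrays alone, 1 with the methods' t-test, 2 with the axis covariate, and 1 to 25 (0 to 2 lower) with an array left out. The interaction called 0 to 2 with an array left out, and it has no value from the 12 arrays alone or the t-test. No member passed between the genotypes on chow or the diets in WT livers under any alternative. The replicate block changed no call of a member named with full values. Except as stated, the causes were not tested.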
